A study of Mus musculus with 7 samples.

Results

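Ribosome biogenesis was examined through 43 genes: 42 that encode nucleolar and ribosome assembly factors, and Myc, the transcription factor known to drive many of them. The genes were chosen by symbol for their known roles, with earlier results of these data known. They were found by Entrez identifier among the 27179 genes of each count file. All 43 were found, and all 43 passed the filter on low counts that left 10863 genes for testing. RNA sequencing had been done on CD8 dendritic cells, the antigen-presenting cells known for cross-presentation to CD8 T cells, sorted from C57BL/6 mice. CpG CD103 high cells (n = 2) were labelled as treated with CpG, the unmethylated dinucleotides of bacterial DNA that Toll-like receptor 9 senses. CD103 low cells (n = 2) and CD103 negative cells (n = 3) were untreated, and CD103 is the integrin encoded by Itgae. The series' title places the work after systemic inflammation. No source used here gives the dose, the time after CpG, the tissue or any pooling of animals. The CpG label and the CD103 high label fall on the same samples, so their effects cannot be told apart.

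Ribosomes are built in the nucleolus, where RNA polymerase I transcribes one long precursor of the ribosomal RNAs. Small nucleolar RNAs, packed with box C/D or box H/ACA proteins, guide methylation and pseudouridylation of that precursor, while separate sets of assembly factors fold and cleave the parts that become the small and the large subunit. Myc, a basic helix-loop-helix factor that binds the E-box CACGTG with Max, is known to raise the transcription of genes at all of these steps in growing cells. In mice its relative Mycl is known to take its place as dendritic cells develop.

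Total counts lay between 4474211 and 4629181 per library. The labels date both CpG CD103 high libraries and CD103 negative replicates 1 and 2 to 2012, and both CD103 low libraries and CD103 negative replicate 3 to 2013, without saying what was done then. On the principal components of all tested genes, component 1 (47.6% of the variance) parted the CpG CD103 high libraries from the rest, and component 2 (23.4%) parted the untreated libraries by date. Itgae was at 1019 and 992 CPM (counts per 1000000 counts of the library) in CpG CD103 high cells, 346 and 375 CPM in CD103 low cells and 61.7, 62.7 and 54.3 CPM in CD103 negative cells, in the order of the sort labels. The summed CPM of 10 markers of the CD8 lineage, Itgae among them, was 17470 and 17480 in CpG CD103 high cells and between 11680 and 13650 in the untreated cells. By the test described below, 7 of the 10 were higher in CpG CD103 high over CD103 negative cells and 0 lower, where 14.5% of all tested genes were higher. Cd8a (log2 fold change -0.15) and Batf3 (0.01) were not among the 7.

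The genes spanned a wide range of abundance. Per kilobase of exon, averaged over the 7 libraries, Ncl, which encodes nucleolin, was highest at 70.6 CPM per kb. It was followed by Rrp1, a large subunit factor, at 69.6, and by Nhp2, a box H/ACA protein, at 56.6 CPM per kb. Myc stood at 11.6 CPM per kb, and the lowest was Wdr12, of the PeBoW complex of the large subunit, at 3.40 CPM per kb. In raw reads the lowest value was 29 counts, of Ddx18 in 1 library, and the median over genes and libraries was 187 counts. The summed level of all 43 genes was 2794 and 2621 CPM in CpG CD103 high cells, 2806 and 3026 CPM in CD103 low cells and 3323, 3595 and 3131 CPM in CD103 negative cells. Both CpG CD103 high sums lay below every CD103 negative sum, and the CD103 low sums lay between them. In sorted bulk cells, fewer cells of a type and less RNA per cell cannot be told apart.

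**Figure D1:**
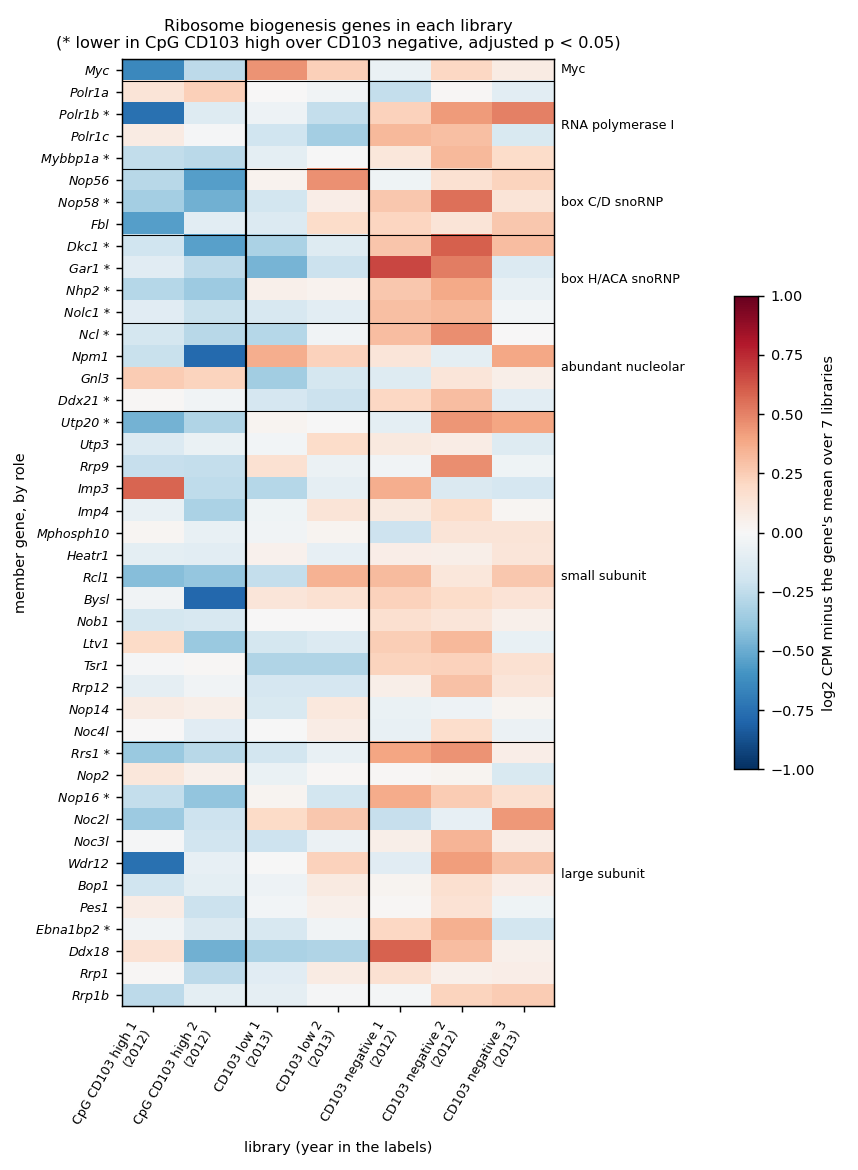
Level of each of the 43 genes (rows, grouped by role) in each library (columns, CpG CD103 high, CD103 low and CD103 negative), as the difference in log2 CPM from the gene's mean over the 7 libraries. The 2 CpG CD103 high columns hold the lowest value of 29 of the 43 genes, and CD103 negative replicate 2 holds the highest value of 21.

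In CpG CD103 high cells, 13 of the 43 genes were lower than in CD103 negative cells and 0 were higher. The test was edgeR's quasi-likelihood test with group and date as terms, at a Benjamini-Hochberg adjusted p under 0.05 over all 10863 genes, and the date term made CD103 negative replicates 1 and 2 the comparison in effect. Over all tested genes 11.8% were called lower and 14.5% higher, 26.3% in either direction, so the count of lower genes among the 43 (30.2%) was above the background and the count of higher genes below it. The median log2 fold change of the 43 was -0.35, against -0.01 over all tested genes, with values from -0.82 to 0.29. The sign was below 0 in 38 of the 43, where the background share is 50.6%. At an unadjusted p under 0.05, 24 were lower and 1 was higher, where the background shares are 18.4% and 20.7%. The count was 9 without the date term and 7 in DESeq2, all of them lower, with backgrounds of 6.92% and 5.6% lower. Against a change of 1.5-fold 0 of the 43 passed, where 4.77% of all tested genes did. Every called gene kept its sign under all 18 alternatives. As the 43 genes were chosen with earlier results of these data known, the shares describe them and are not a test of the set.

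The roles differed in how many genes were called. Over all tested genes 11.8% were called lower. All 4 box H/ACA genes were lower, with a median log2 fold change of -0.71. Among the 3 box C/D genes 1 was lower, and 2 of 4 were lower both among the polymerase I genes and among the abundant nucleolar proteins. In the large subunit group 3 of 12 (25%) were lower. In the small subunit group 1 of 15 (6.67%) was lower, near the background of 11.8%, with a median of -0.24. At an unadjusted p under 0.05, 6 of these 15 were lower (background 18.4%), and 13 were below 0 (background 50.6%). The groups are small and differ in abundance, and no test of the difference between roles was made.

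**Figure D2:**
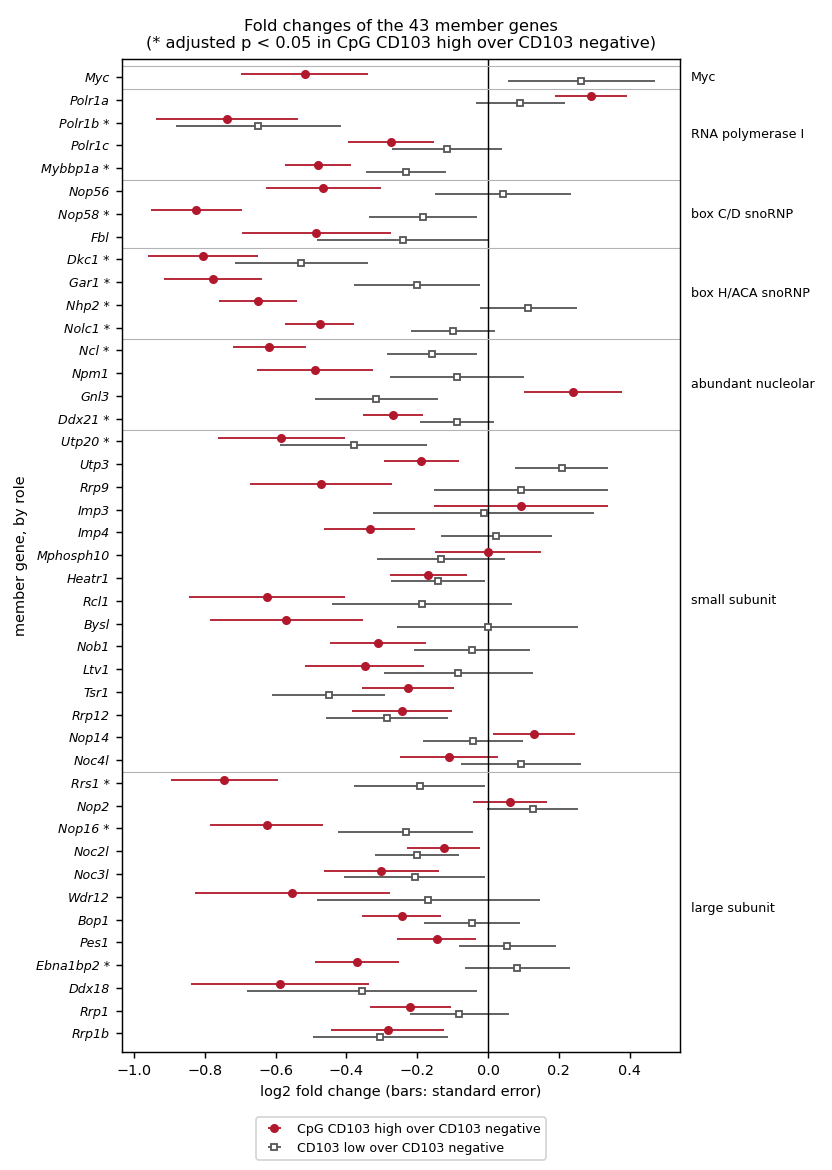
Log2 fold change of each of the 43 genes with its standard error as a bar, by role, for CpG CD103 high over CD103 negative (red circles) and CD103 low over CD103 negative (open squares). The 13 starred genes passed the adjusted p threshold in the first comparison, all of them below 0, and 0 passed in the second.

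Box H/ACA particles guide pseudouridylation of ribosomal RNA, and one of them forms part of telomerase. Dkc1 (Entrez 245474; chromosome X, 75095854 to 75109776, mm10), which encodes the pseudouridine synthase dyskerin, was at 46.1 and 36.3 CPM in CpG CD103 high cells, 42.5 and 48.5 CPM in CD103 low cells and 64.1, 80.0 and 65.6 CPM in CD103 negative cells. All 3 CD103 negative values were above the other 4, while the CpG CD103 high and CD103 low values overlapped. Its log2 fold change in CpG CD103 high over CD103 negative cells was -0.80 (SE 0.16, adjusted p = 0.00472), the steepest of the box H/ACA genes. Gar1 (Entrez 68147; chromosome 3, 129824912 to 129831407), a core protein of the particle, was at 33.1 and 29.8 CPM in CpG CD103 high cells, 25.9 and 30.8 CPM in CD103 low cells and 56.9, 50.9 and 32.6 CPM in CD103 negative cells. Here CD103 negative replicate 3 sat with the CpG CD103 high and CD103 low libraries, not with its own group. The log2 fold change was -0.78 (SE 0.14, adjusted p = 0.00299), and Gar1 was also lower in CD103 negative replicate 3 than in replicates 1 and 2 (-0.73, SE 0.17, adjusted p = 0.0498). The first call was lost without the date term and in the test against a change of 1.5-fold.

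Nhp2 (Entrez 52530; chromosome 11, 51619773 to 51623718) encodes another core box H/ACA protein. It was at 45.9 and 43.5 CPM in CpG CD103 high cells, 57.9 and 57.2 CPM in CD103 low cells and 67.4, 72.9 and 53.2 CPM in CD103 negative cells. Both CpG CD103 high values lay below all 5 untreated values. The log2 fold change was -0.65 (SE 0.11, adjusted p = 0.00247) over CD103 negative cells and -0.76 (SE 0.18, adjusted p = 0.0348) over CD103 low cells. The call over CD103 low cells was kept without CpG CD103 high replicate 1 and lost with any other library left out, at adjusted p-values between 0.0656 and 0.132. Nolc1 (Entrez 70769; chromosome 19, 46075847 to 46085543), a chaperone of small nucleolar particles, was at 81.4 and 75.3 CPM in CpG CD103 high cells, 78.8 and 81.8 CPM in CD103 low cells and 108, 110 and 86.0 CPM in CD103 negative cells. The CpG CD103 high and CD103 low ranges overlapped below all CD103 negative values. Its log2 fold change over CD103 negative cells was -0.48 (SE 0.10, adjusted p = 0.00589), a call lost in the test against a change of 1.5-fold and without the date term.

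Box C/D particles guide ribose methylation. Nop58 (Entrez 55989; chromosome 1, 59684961 to 59711510), a scaffold protein of the particle, was at 77.9 and 70.4 CPM in CpG CD103 high cells, 86.5 and 103 CPM in CD103 low cells and 119, 144 and 107 CPM in CD103 negative cells. The 3 groups did not overlap, with CpG CD103 high lowest and CD103 negative highest. Its log2 fold change over CD103 negative cells, -0.82 (SE 0.13, adjusted p = 0.00144), was the steepest of the 43 genes. Its partner Nop56 (-0.46, SE 0.16, adjusted p = 0.061) and Fbl, the methyltransferase fibrillarin (-0.48, SE 0.21, adjusted p = 0.116), did not pass.

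Of the 4 abundant nucleolar proteins, Ncl and Ddx21 were lower. Ncl (Entrez 17975; chromosome 1, 86344719 to 86359455), whose product binds nascent ribosomal RNA, was at 506 and 471 CPM in CpG CD103 high cells, 469 and 559 CPM in CD103 low cells and 709, 791 and 573 CPM in CD103 negative cells. All CD103 negative values were above the others, and CD103 negative replicate 3 was close to the higher CD103 low library. Its log2 fold change was -0.62 (SE 0.10, adjusted p = 0.00222). Ddx21 (Entrez 56200; chromosome 10, 62580247 to 62602298), an RNA helicase, was at 160 and 155 CPM in CpG CD103 high cells, 142 and 137 CPM in CD103 low cells and 183, 197 and 148 CPM in CD103 negative cells. Its ranges in CpG CD103 high and CD103 negative cells overlapped through replicate 3, and the log2 fold change was -0.27 (SE 0.09, adjusted p = 0.0428). That call was lost in 11 of the 18 alternatives, among them DESeq2 and the removal of any library but CD103 negative replicate 3. Npm1, which encodes nucleophosmin, did not pass (-0.49, SE 0.16, adjusted p = 0.0508), although it passed in 7 of the 18 alternatives, over which its log2 fold change ran from -0.79 to -0.25. The gene is known for processed pseudogenes, so its count is uncertain. Gnl3, the GTP-binding protein nucleostemin, had a positive log2 fold change that did not pass (0.24, SE 0.14, adjusted p = 0.229).

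Of the 4 polymerase I genes, Polr1b and Mybbp1a were lower. Polr1b (Entrez 20017; chromosome 2, 129100970 to 129128060), the second largest subunit, was at 13.8 and 21.1 CPM in CpG CD103 high cells, 22.3 and 19.5 CPM in CD103 low cells and 27.0, 31.0 and 32.8 CPM in CD103 negative cells. All CD103 negative values were highest, and the other groups overlapped. Its log2 fold change over CD103 negative cells was -0.74 (SE 0.20, adjusted p = 0.0232), a call lost in DESeq2 and on leaving out CD103 negative replicate 2 or CpG CD103 high replicate 1. Polr1a, the largest subunit, was at 198 and 214 CPM in CpG CD103 high cells, 182 and 177 CPM in CD103 low cells and 154, 183 and 169 CPM in CD103 negative cells. Both CpG CD103 high values were above all others, and the log2 fold change of 0.29 (SE 0.10, adjusted p = 0.0594) did not pass. It was the 1 gene of the 43 with a positive change at an unadjusted p under 0.05, and it passed without CD103 negative replicate 2. Polr1c, a subunit shared with polymerase III, had a log2 fold change of -0.27 (SE 0.12, adjusted p = 0.124).

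Mybbp1a (Entrez 18432; chromosome 11, 72441327 to 72451770) encodes a nucleolar protein that acts in transcription and processing of the ribosomal RNA precursor. It was at 190 and 187 CPM in CpG CD103 high cells, 211 and 225 CPM in CD103 low cells and 245, 282 and 256 CPM in CD103 negative cells. The 3 groups did not overlap, with CpG CD103 high lowest and CD103 negative highest. The log2 fold change over CD103 negative cells was -0.48 (SE 0.09, adjusted p = 0.0048). This call and those of Nop58, Dkc1, Nhp2 and Ncl were lost in 1 of the 18 alternatives each, the test against a change of 1.5-fold.

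Among large subunit factors, Rrs1 (Entrez 59014; chromosome 1, 9545408 to 9547455), which helps to bring the 5S particle into the early subunit, was at 15.8 and 16.8 CPM in CpG CD103 high cells, 17.9 and 19.3 CPM in CD103 low cells and 26.8, 27.8 and 21.3 CPM in CD103 negative cells. Nop16 (Entrez 28126; chromosome 13, 54584191 to 54590097), a nucleolar assembly factor, was at 18.0 and 16.1 CPM in CpG CD103 high cells, 21.6 and 18.6 CPM in CD103 low cells and 27.4, 25.2 and 23.6 CPM in CD103 negative cells. In both genes the groups did not overlap and fell in the same order. The log2 fold changes over CD103 negative cells were -0.74 for Rrs1 (SE 0.15, adjusted p = 0.00587) and -0.63 for Nop16 (SE 0.16, adjusted p = 0.0173). Both calls were lost in DESeq2, and that of Nop16 also on leaving out CD103 negative replicate 1 or CpG CD103 high replicate 2. Ebna1bp2 (Entrez 69072; chromosome 4, 118620799 to 118627776), an early large subunit factor, was at 51.5 and 47.5 CPM in CpG CD103 high cells, 47.0 and 51.3 CPM in CD103 low cells and 60.6, 67.3 and 46.4 CPM in CD103 negative cells. Replicate 3 of the CD103 negative cells was the lowest of all 7 libraries. Over CD103 negative cells the log2 fold change was -0.37 (SE 0.12, adjusted p = 0.0442), and the call was lost in 11 of the 18 alternatives, the same ones as for Ddx21. The PeBoW genes did not pass: Pes1 at -0.15, Bop1 at -0.24 and Wdr12 at -0.55 on the log2 scale, and the methyltransferase gene Nop2 was at 0.06.

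Of the 15 small subunit genes, Utp20 passed (Entrez 70683; chromosome 10, 88746607 to 88826814). It encodes a large scaffold protein of the small subunit processome. Utp20 was at 25.7 and 28.9 CPM in CpG CD103 high cells, 36.3 and 35.6 CPM in CD103 low cells and 33.4, 48.5 and 46.8 CPM in CD103 negative cells. Both CpG CD103 high values lay below all untreated values, while CD103 low and CD103 negative overlapped. The log2 fold change over CD103 negative cells was -0.58 (SE 0.18, adjusted p = 0.0371), and the call was lost in 9 of the 18 alternatives, among them DESeq2 and the removal of CD103 negative replicate 2 or of any CpG CD103 high or CD103 low library. Rcl1, an early processing factor, had a log2 fold change of -0.62 that did not pass (SE 0.22, adjusted p = 0.0624), and Bysl, of the late subunit, one of -0.57 (SE 0.22, adjusted p = 0.0795). Nob1, the endonuclease that forms the end of the small ribosomal RNA, was at -0.31, Heatr1 at -0.17, Noc4l at -0.11, Mphosph10 at 0.00 and Nop14 at 0.13.

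**Figure D3:**
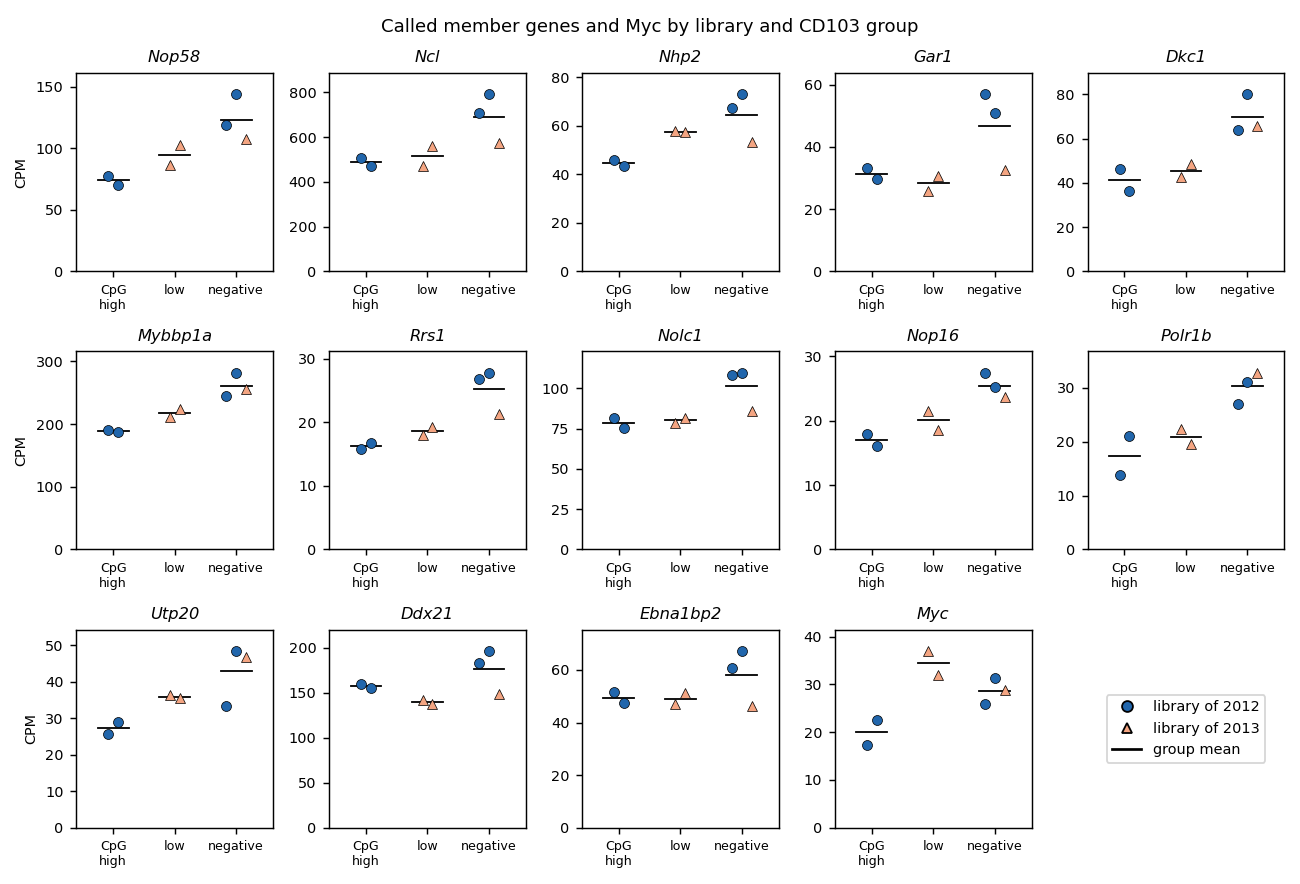
CPM of Myc and of the 13 genes called lower in CpG CD103 high over CD103 negative cells, 1 panel per gene and 1 point per library, with the group mean as a bar and the date of each library as the marker shape. In 10 of the 13 called genes both CpG CD103 high points lie below all 3 CD103 negative points, the exceptions being Gar1, Ddx21 and Ebna1bp2.

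Myc itself (Entrez 17869; chromosome 15, 61985341 to 61990361) was at 17.3 and 22.6 CPM in CpG CD103 high cells, 37.0 and 32.0 CPM in CD103 low cells and 25.9, 31.3 and 28.7 CPM in CD103 negative cells. Both CpG CD103 high values were the lowest and both CD103 low values the highest. The log2 fold change in CpG CD103 high over CD103 negative cells, -0.52 (SE 0.18, adjusted p = 0.0574), did not pass. It passed in 2 of the 18 alternatives: at -0.74 without CpG CD103 high replicate 2 (adjusted p = 0.043), and with upper quartile scaling (adjusted p = 0.0472). Over CD103 low cells it was -0.78 (SE 0.27, adjusted p = 0.119), and in CD103 low over CD103 negative cells 0.26 (SE 0.21, adjusted p = 0.847).

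The E-box CACGTG, which reads the same on both strands, was searched in the RefSeq promoter windows of build GRCm38.p6, from 250 bases before to 50 bases after the start site. Windows were found for 37 of the 43 genes, the others being Myc, Rrs1, Bop1, Rrp12, Fbl and Npm1. The E-box was in 7 of the 37 (18.9%): Imp4, Nop2, Ltv1, Utp20, Pes1, Mybbp1a and Tsr1. It was in 12.1% of the 8576 tested genes with a window and in 7.15% of all 32851 windows. Among the 12 genes called lower in CpG CD103 high over CD103 negative cells that had a window, 2 held it, and 5 of the 25 others did. Both windows of called genes are shown, as the called genes whose windows hold the letters that Myc binds, with the E-box in capitals. In Mybbp1a (chr11:72441077-72441376, plus strand) its first base lies 40 bases past the start site, and in Utp20 (chr10:88826765-88827064, minus strand) 37 bases past it. A match is a description of letters, and no binding was measured here.
Mybbp1a: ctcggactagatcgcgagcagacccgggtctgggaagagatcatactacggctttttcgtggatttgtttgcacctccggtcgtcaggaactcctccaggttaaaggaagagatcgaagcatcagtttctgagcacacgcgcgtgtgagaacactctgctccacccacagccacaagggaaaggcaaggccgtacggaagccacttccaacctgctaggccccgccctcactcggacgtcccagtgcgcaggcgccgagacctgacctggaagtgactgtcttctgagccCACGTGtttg
Utp20: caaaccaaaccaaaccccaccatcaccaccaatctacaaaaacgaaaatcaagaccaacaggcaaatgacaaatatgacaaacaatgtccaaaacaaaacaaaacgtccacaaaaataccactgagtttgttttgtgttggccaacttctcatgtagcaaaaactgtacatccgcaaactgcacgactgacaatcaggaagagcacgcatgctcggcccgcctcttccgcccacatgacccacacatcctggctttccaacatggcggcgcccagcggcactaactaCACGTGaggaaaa

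Over the 43 genes, CpG CD103 high cells lay below CD103 negative replicates 1 and 2 in 33 (background 31.8%), CD103 low cells in 23 (background 25.1%) and CD103 negative replicate 3 in 21 (background 36.6%). Set against all 3 CD103 negative libraries, the CpG CD103 high range was lower in 26 genes and higher in 4 (background 22.7% and 22%). Against all 5 untreated libraries it was lower in 17 and higher in 3 (background 17.6% and 16.3%). Of the called genes, Mybbp1a, Nop58, Nhp2, Utp20, Rrs1 and Nop16 were below all 5. Between CD103 negative replicate 3 and replicates 1 and 2, edgeR called 2 of the 43 (background 3.46%), Gar1 lower and Noc2l, a large subunit factor, higher (0.59, SE 0.12, adjusted p = 0.0307). Both calls were lost in DESeq2 and on leaving out either other CD103 negative library or either CD103 low library. Noc2l was at 151 CPM in CD103 negative replicate 3, against 95.1 and 105 CPM in replicates 1 and 2, and the CD103 low libraries of the same date, at 128 and 135 CPM, were also above the 2012 libraries.

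In CD103 low over CD103 negative cells, which the date term set against replicate 3 alone, 0 of the 43 genes passed in edgeR, which called 0.138% of all tested genes. DESeq2 also called 0, where it called 0.304% of all tested genes. At an unadjusted p under 0.05, 3 were lower and 0 were higher (background 2.9% and 4.44%): Polr1b (-0.65, SE 0.23), Dkc1 (-0.53, SE 0.19) and Tsr1, a late small subunit factor (-0.45, SE 0.16), named after their values were seen. The adjusted p-values were 0.527, 0.521 and 0.521. The median log2 fold change was -0.12, against 0.01 over all tested genes, and 32 of the 43 were below 0 (background 47.6%). The CPM range of CD103 low cells was below that of all CD103 negative libraries in 19 genes and above it in 1 (background 12.2% and 16.2%). With CD103 negative replicates 1 and 2 as the only controls and no date term, 9 genes were lower, among them Gar1 (-0.95), Dkc1 (-0.69) and Ncl (-0.57), where 4.56% of all genes were called lower. In that fit the date and the CD103 level cannot be told apart.

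CpG CD103 high over CD103 low cells, which is also the test of whether the 2 differences from CD103 negative cells differ, gave 1 of the 43 genes, Nhp2, where 2.78% of all tested genes were called lower and 6.22% in either direction. The median log2 fold change was -0.24, against -0.02 over all tested genes, and 34 of the 43 were below 0 (background 51.9%). At an unadjusted p under 0.05, 9 were lower (background 11%): Nhp2, Nop58 (-0.64), Ncl (-0.46), Myc, Gar1 (-0.58), Nolc1 (-0.38), Ebna1bp2 (-0.45), Utp3 (-0.40) and Rrs1 (-0.55). Gnl3 was the 1 higher (0.56, SE 0.22, adjusted p = 0.166, background 12.5%). The 2 groups share no date, so the log2 fold changes of this comparison include a date shift set by CD103 negative replicate 3. In CPM, the means in CpG CD103 high and CD103 low cells were 31.4 and 28.3 for Gar1, and 49.5 and 49.1 for Ebna1bp2. The rest of the 9 had lower means in CpG CD103 high cells. In the fit with no date term that left out CD103 negative replicate 3, 5 passed, Myc (-0.77), Nop56 (-0.65), Npm1 (-0.75) and Noc2l (-0.49) lower and Gnl3 (0.52) higher, and Nhp2 did not. Those 5 (11.6% of the 43) stand against 15.5% of all genes called in that fit, in which the date and the CpG CD103 high group cannot be told apart. For the other 12 called genes the difference between CpG CD103 high and CD103 low cells did not pass, and the test had wider errors, with a median SE of 0.22 on the log2 scale against 0.14 for CpG CD103 high over CD103 negative cells.

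Other genes of the pathway, 129 in 5 lists, were lower more often than higher in CpG CD103 high over CD103 negative cells. Of them 31 (24%) were lower, where 11.8% of all tested genes were, and 2 were higher, with a median log2 fold change of -0.28 and 106 of the 129 below 0. The count depended on the fit. Without the date term 6 (4.65%) were lower, where 6.92% of all tested genes were, and in DESeq2 7 (5.43%) were, where 5.6% of all tested genes were. Without CD103 negative replicate 2 it was 8 (6.2%), where 7.73% of all tested genes were lower. In these 3 fits the share of lower genes was thus not above the background. The share was above the background in the following fits. With no filter 17 (13.2%) were lower, where 5.78% of all genes were. Without CD103 negative replicate 1 it was 15 (11.6%), where 6.95% of all tested genes were lower. Without CD103 negative replicate 3 and with no date term it was 34 (26.4%), where 12.3% of all tested genes were lower. With limma voom in place of edgeR it was 29 (22.5%), where 11.5% of all tested genes were lower. Other small subunit factors gave 10 lower of 42, led by Aatf (-0.52), Emg1 (-0.44), a pseudouridine methyltransferase, and Utp6 (-0.46), a count that was 1 without the date term and 0 in DESeq2. Other large subunit factors gave 9 lower and 2 higher of 47, with Rpf2 (-0.77), the partner of Rrs1, and Rsl1d1 (-0.61) lower and Sdad1 (0.62) higher. Their lower count was 2 without the date term, 4 in DESeq2 and 5 on leaving out CD103 negative replicate 2 or CpG CD103 high replicate 2. Assembly factors of small nucleolar particles gave 4 lower of 13, among them the ATPase gene Ruvbl2 (-0.56), Rpap3 (-0.84) and Nop10 (-0.66), the remaining core protein of box H/ACA particles, and 2 were lower without the date term, in DESeq2 and on leaving out CD103 negative replicate 1. The rest of the polymerase I machinery gave 4 lower of 12, with the subunit genes Polr1e (-0.66) and Polr1h (-0.42) and the upstream binding factor gene Ubtf (-0.33). That count was 1 without the date term, in DESeq2 and on leaving out CD103 negative replicate 1, and 0 on leaving out CD103 negative replicate 2 or CpG CD103 high replicate 2. Genes of the exosome, which trims ribosomal RNA, gave 4 lower of 15, with Exosc3 (-0.62), Exosc2 (-0.83) and Exosc6 (-0.93), but 0 without the date term, in DESeq2 and on leaving out CD103 negative replicate 2 or either CpG CD103 high library. Of 21 genes of the polymerase III machinery 2 were higher, Bdp1 (0.55) and Polr3a (0.46), and 2 were lower, Polr3k (-0.62) among them, with a median of 0.04. None of these 21 passed in DESeq2 or on leaving out CD103 negative replicate 1.

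Genes beside the pathway were described in the same way, from lists also chosen with earlier results of these data known. Of 24 genes known as Myc targets outside the nucleolus, 15 (62.5%) were lower in CpG CD103 high over CD103 negative cells, where 11.8% of all tested genes were. Of the 24, 0 were higher, and the median was -0.71. The 15 included Pa2g4 (-0.78), Ptma (-1.06) and Paics (-0.71), an enzyme of purine synthesis. The count of lower genes was 10 without the date term and 11 in DESeq2, where 6.92% and 5.6% of all tested genes were lower. Of 11 tested partners and rivals of Myc, Mlxip was higher (0.61) and Mxd1, a Max partner that opposes Myc, was lower (-0.75). Each is 9.09% of the 11, where 14.5% of all tested genes were higher and 11.8% lower. Mycl, named after its values were seen, was at 548 and 561 CPM in CpG CD103 high cells, 539 and 475 CPM in CD103 low cells and 556, 538 and 447 CPM in CD103 negative cells. Its groups overlapped, and its log2 fold change over CD103 negative cells was 0.02 (SE 0.09, adjusted p = 0.893). Of 30 cell cycle genes 9 (30%) were lower, where 11.8% of all tested genes were, and 0 were higher. Among the 9 were Mcm6 (-0.92), Mcm3 (-0.73) and Mcm4 (-0.85), which form part of the replicative helicase. The count was 6 without CD103 negative replicate 2, where 7.73% of all tested genes were lower. The summed CPM of the cell cycle list was 1632 and 2346 in CpG CD103 high cells, 2059 and 2549 in CD103 low cells and 2338, 3077 and 2214 in CD103 negative cells, and these ranges overlapped. In CD103 low over CD103 negative cells none of these lists had a called gene in edgeR with the date term. With CD103 negative replicates 1 and 2 as the only controls and no date term, 10 Myc targets and 5 cell cycle genes were lower. In that fit 2 of the Myc partners and rivals were higher, and 11 of the 129 were lower and 1 was higher. Over all genes it called 4.56% lower and 9.61% in either direction, and there date and CD103 level cannot be told apart.

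**Figure D4:**
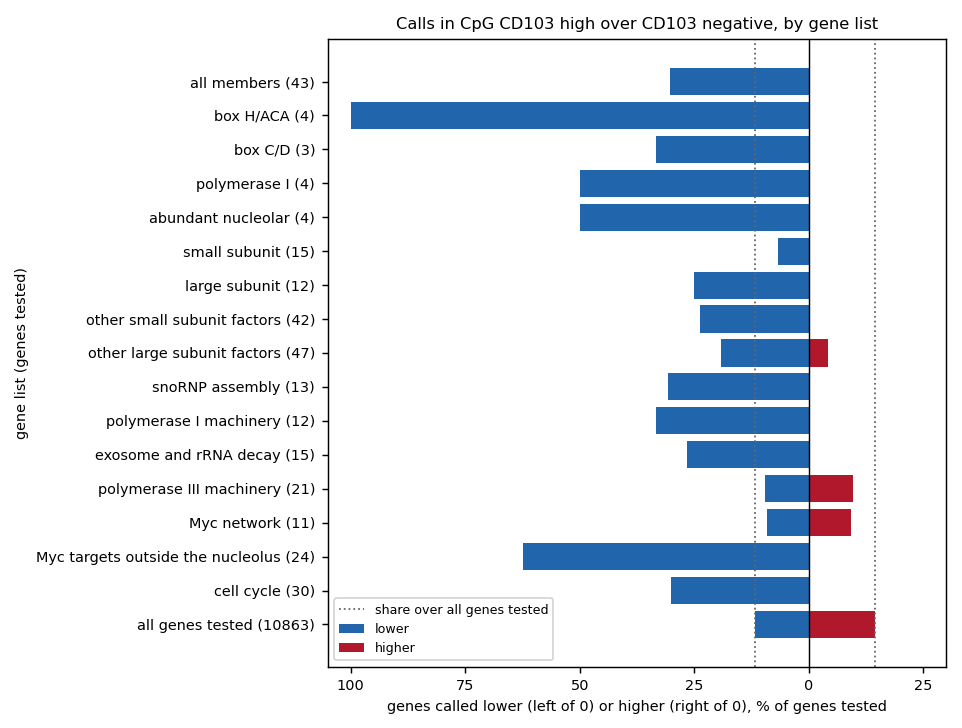
Share of tested genes called higher and lower in CpG CD103 high over CD103 negative cells, for the 43 genes by role, for the other lists and for all tested genes. The share called lower is 30.2% in the 43 genes and 24% in the 129 other ribosome biogenesis genes, against 11.8% of all tested genes.

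Markers of other cells moved with the CpG CD103 high group. Of 6 erythroid and platelet markers 4 were called higher, and all 6 summed to 22.9 and 25.6 CPM in CpG CD103 high cells, 14.8 and 5.75 CPM in CD103 low cells and 1.98, 1.29 and 3.19 CPM in CD103 negative cells. Of 6 neutrophil markers 1 was tested and called higher, and all 6 summed to 19.8 and 13.7 CPM in CpG CD103 high cells and to at most 2.80 CPM in the untreated cells. Of 5 B and plasma cell markers 2 of 3 tested were called lower, and all 5 summed to 10.2 and 11.2 CPM in CpG CD103 high cells and to between 51.3 and 75.8 CPM in the untreated cells. The 6 T cell markers summed to 44.4 CPM in CD103 low replicate 2, against 4.26 to 10.8 CPM elsewhere. The 5 NK cell markers, of which 0 were tested, summed to 5.10 and 3.59 CPM in CpG CD103 high cells and to between 0.439 and 2.76 CPM in the untreated cells. Markers of other dendritic cells summed highest in CD103 negative replicate 3, at 73.9 CPM for 6 cDC2 markers and 220 CPM for 6 plasmacytoid markers. In CpG CD103 high over CD103 negative cells 3 of 4 tested cDC2 markers were called lower, and the cDC2 sums were 16.6 and 14.1 CPM in CpG CD103 high cells and at least 25.9 CPM in the untreated cells. Mgl2, a cDC2 marker that was not tested, went the other way. It was at 2.22 and 3.36 CPM in CpG CD103 high cells and at most 0.23 CPM in the untreated cells. Of 4 tested plasmacytoid markers 1 was lower, Tcf4 (-1.31). Of 5 tested macrophage and monocyte markers, Lyz2 (-1.07) and Cd68 (-0.38) were lower and Ly6c2 (1.96) was higher, and the 6 on the list summed to 351 and 291 CPM in CpG CD103 high cells and to between 391 and 590 CPM in the untreated cells. The part of these cells, and of the cell cycle genes, in the lower levels of the 43 genes was not tested.

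Introns of some of the genes carry small nucleolar RNAs. In the GENCODE M21 annotation 6 of the 43 genes, Nop56, Nop58, Dkc1, Ncl, Gnl3 and Tsr1, enclose 18 of them on the same strand. Of these 6 hosts 3 were lower in CpG CD103 high over CD103 negative cells, with a median log2 fold change of -0.54 and values from -0.82 to 0.24. Of the other 37 genes 10 were lower, with a median of -0.33 and values from -0.78 to 0.29. Over all tested genes 11.8% were lower, and the difference between hosts and other genes was not tested. Exons of 17 of the 43 genes overlap exons of a gene on the other strand, among the called ones Mybbp1a with Spns2, Dkc1 with Mpp1 and Nhp2 with Rmnd5b. No source used here states the strand setting of the counting, so reads of such partners cannot be told apart.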

How the data were processed

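The 7 libraries were analysed as raw counts per gene, which the authors deposited as whole numbers with no scaling. The submitters' processing notes list CASAVA, Subread 1.4.6, featureCounts and build mm10. No source used here gives the annotation release, the strand setting or the treatment of reads mapping to several places. Per the file headers the authors also gave the length of each gene, another kind of value, which was used for levels per kilobase. A series-wide table was not used, since the names of its 7 columns are those of no labelled sample. Entrez identifiers were matched to symbols for 25275 of 27179 genes (93%), and unmatched identifiers held 0.533% of all counts.

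Counts were fitted with edgeR 4.0.16 in R 4.3.3 (filterByExpr by group, TMM scaling, a quasi-likelihood fit of group and date over all 7 libraries, 3 residual degrees of freedom), and the threshold was an adjusted p (Benjamini-Hochberg, over all 10863 genes) under 0.05. Given the date term, CpG CD103 high cells were in effect set against CD103 negative replicates 1 and 2, and CD103 low cells against replicate 3. The SE is the size of the log2 fold change divided by the square root of F. CPM values use TMM-scaled library sizes, and a count of 0 allows up to 3 counts, 0.638 to 0.690 CPM here, by counting error only. The design text calls the samples biological replicates, and p-values measure the spread between same-group libraries of the same date. CD103 negative replicate 3 has no such partner and is fitted exactly by the date term. Comparisons that rest on it therefore borrow their spread from the other libraries. They are CD103 low over CD103 negative, CpG CD103 high over CD103 low, and replicate 3 over replicates 1 and 2.

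Values of every library are given for Myc and for each called gene among the 43, and of each other list up to 3 called genes of lowest adjusted p are named. Further genes were picked for naming with their values in view. The 43 genes and all lists were chosen with earlier results of these data known. Alternatives were other scalings, filters and terms, DESeq2 1.42.0, voom of limma 3.58.1, a test against a change of 1.5-fold, single dates and leaving out each library. Sequences come from RefSeq, and gene coordinates from RefSeq's gene table for GRCm38.p6.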

Additional observations from a re-analysis of the deposited data

How the results depend on the processing

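In CpG CD103 high over CD103 negative cells the count of called genes among the 43 was 7 in DESeq2 and 0 in the test against a change of 1.5-fold, and leaving out 1 library gave 10 to 14. Calls over all genes were 1459 in DESeq2, 1589 without the date term and 518 in the 1.5-fold test, and 1738 to 2290 with 1 library left out, or 2861 without CD103 negative replicate 3, where the date term drops out. The other settings kept the count of the 43 within 1.5 times, and the median of the 43 ran from -0.40 to -0.29.

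In CD103 low over CD103 negative cells, calls over all genes were 1 with no filter, 33 in DESeq2, 3 in the 1.5-fold test and 187 with the later date only. With 1 library left out they were 1 to 27, or 1035 without CD103 negative replicate 3. Among the 43 they were 0 with any other library left out and 9 without CD103 negative replicate 3.

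In CpG CD103 high over CD103 low cells, 0 of the 43 were called with total counts, with no filter, in DESeq2 and in the 1.5-fold test, 2 without the date term, 0 to 1 with 1 library left out, and 5 without CD103 negative replicate 3. Over all genes the counts were 263 with no filter, 390 in DESeq2, 104 in the 1.5-fold test and 115 to 748 with 1 library left out, or 1668 without CD103 negative replicate 3. Noc2l turned to -0.49 without CD103 negative replicate 3 (adjusted p = 0.0102).

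Between CD103 negative replicate 3 and replicates 1 and 2, calls among the 43 were 1 with total counts and with the stricter filter, 0 with no filter, in DESeq2 and in the 1.5-fold test, and 0 to 2 with 1 library left out. Over all genes they were 103 with no filter, 208 in DESeq2, 31 in the 1.5-fold test and 93 to 612 with 1 library left out. The cause of these changes was not tested.

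Replicate numbers are shared across groups, but deviations of same-numbered libraries correlated at -0.01 (CpG CD103 high with CD103 low), 0.17 (CpG CD103 high with CD103 negative) and 0.00 (CD103 low with CD103 negative), so the numbers were not read as pairs. With the replicate block and no date term, 15 of the 43 (34.9%) were called in CpG CD103 high over CD103 negative cells, where 27.7% of all genes were. In CD103 low over CD103 negative cells 10 (23.3%) were called, where 10.8% of all genes (1175) were. In CpG CD103 high over CD103 low cells 5 (11.6%) were called, a share below the 16.3% of all genes (1775). Under that block Noc2l was at 0.39 in CD103 low over CD103 negative cells and at -0.51 in CpG CD103 high over CD103 low cells. Depth limits the lowest genes most: 34 of the 43 averaged at least 100 counts per library, and Ddx18 averaged 42.3.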
